A study of Mus musculus with 20 samples.

Results

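The genes described here encode parts of the sperm tail: dynein intermediate and light chains, tektins, radial spoke proteins, outer dense fibre proteins, sperm-associated antigens and 2 A-kinase anchoring proteins. They were taken by symbol from the deposited expression table (Dnaic and Tekt followed by a digit, Dnal, Rsph, Odf and Spag families, with Akap3 and Akap4), which gave 37 of 23235 genes. The same rule asked for symbols starting with Dnah and a digit and found 0, because this table lists the axonemal heavy chains under the older Dnahc symbols. Those heavy chains are therefore reported below beside the members and not among them.

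A sperm tail is built around an axoneme, a ring of doublet microtubules around a central pair. Dynein arms on the doublets slide them past each other, radial spokes and the central pair regulate that sliding, and tektins form filaments within the doublet walls. Outside the axoneme, outer dense fibres and the fibrous sheath stiffen the tail. In the testis many axonemal genes are transcribed during meiosis, whereas many genes of the fibrous sheath and outer dense fibres are known for expression in spermatids. Not every Spag symbol marks a tail protein: Spag5 encodes a mitotic spindle protein, Spag9 a scaffold of JNK signalling, and Spag11a and Spag11b encode defensin-like epididymal proteins.

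The study measured RNA in spermatocytes of adult male mice, WT or Cxxc1-null, all on a C57BL/6J background. Cxxc1 encodes a protein that binds unmethylated CpG sites and belongs to complexes that methylate lysine 4 of histone H3. Cells were sorted by flow cytometry as pachytene, diplotene or meiosis II spermatocytes, and 500 cells went into each Smart-seq2 library, in which oligo-dT primes full-length cDNA. The 6 groups were WT and Cxxc1-null cells at each of the 3 stages, with 2 libraries per group (n = 2 throughout). Which part of Cxxc1 was deleted, which Cre driver was used if any, and whether paired libraries were made from different mice are not given in the sources used here. Each p-value therefore rests on the difference between 2 libraries of a kind, and that may be technical. Values are FPKM (fragments relative to the length of the transcript and the size of the library), so levels can be compared between genes, but the sequencing depth behind them is unknown.

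Cxxc1 RNA was lower in both null libraries than in both WT libraries at each stage. It was at 9.19 and 9.57 FPKM against 11.7 and 17.3 in pachytene, 9.57 and 8.29 against 13.7 and 17.6 in diplotene, and 3.10 and 2.02 against 12.5 and 12.8 in meiosis II. Markers of pachytene spermatocytes (18 genes, such as Sycp3) were above 0 in all 12 libraries, with a summed level of 9440 to 16100 FPKM. Ldhc alone, at 6402 to 10502 FPKM, made up most of each sum, and single markers moved in both directions. In WT, Sycp3 was at 2419 and 904 FPKM in pachytene and 179 and 140 in meiosis II. Pgk2 was at 115 and 126 FPKM in WT pachytene and 380 and 527 in WT meiosis II. The meiosis II libraries also held markers of other cells. Their 26 spermatid markers summed to 6249 to 15520 FPKM, against 2017 to 3716 in pachytene and diplotene. Their 11 Sertoli markers summed to 260 to 374 FPKM, against 47.1 to 56.1 in pachytene and 3.87 to 10.9 in diplotene. Clu (166 to 228 FPKM in meiosis II) and Ctsl (42.0 to 67.5) made up most of each sum. Sox9, a defining Sertoli gene, was at 1.5 to 2.13 FPKM in meiosis II and at most 0.419 elsewhere. Leydig and peritubular markers summed to 13.5 to 71.8 FPKM in the earlier stages and 51.8 to 282 in meiosis II. Insl3 alone was at 45.5 to 258 FPKM in meiosis II, so that sum was mostly 1 gene. The marker Star went the other way, at 1.26 to 4.19 FPKM in the earlier stages and 0.567 to 1.08 in meiosis II. Earlier work on these data set 2 libraries apart, WT pachytene replicate 2 and Cxxc1-null diplotene replicate 2. Each lay nearer the next stage than the other library of its group. On log2(FPKM + 1), WT pachytene replicate 2 correlated with the WT diplotene libraries at r = 0.9476 and 0.9499, and replicate 1 at 0.9181 and 0.9015. Cxxc1-null diplotene replicate 2 correlated with the null meiosis II libraries at 0.8979 and 0.8835, and replicate 1 at 0.8585 and 0.8214. The counts between genotypes are given below with and without these 2 libraries.

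Promoter sequences are shown for the members on which the results turn. Sequences are from RefSeq (GRCm38.p6); 35 members matched by symbol and 2 by synonym, and 30 had a promoter. Each line below gives the 250 bases before a transcription start, 5′ to 3′ on the strand of the gene. Akap3 (chr6:126852848-126853097, plus strand) and Akap4 (chrX:7067265-7067514, plus strand) are the genes of the fibrous sheath anchoring proteins. Their RNA was higher in the meiosis II libraries than in the earlier ones, and the meiosis II libraries also held spermatid markers. In these 2 sequences the capitals mark the longest run of bases that both hold, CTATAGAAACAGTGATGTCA, 20 bases long. The run lies at -34 to -15 in Akap3 and at -47 to -28 in Akap4, counted from the transcription start. It was sought after the sequences had been seen, and both had to hold it by the way it was chosen. Of 32851 promoters of 300 bases in the table (both strands) only these 2 held it (0.00609%). No other run of 20 bases was counted beside it, so this share does not show that the run is unusual. Neither upstream sequence holds a CpG. What the run does was not tested.
Akap3: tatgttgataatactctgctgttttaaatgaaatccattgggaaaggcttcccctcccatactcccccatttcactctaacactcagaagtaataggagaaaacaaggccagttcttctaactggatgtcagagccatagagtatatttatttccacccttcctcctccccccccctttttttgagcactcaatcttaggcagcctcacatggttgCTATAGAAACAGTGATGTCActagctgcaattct
Akap4: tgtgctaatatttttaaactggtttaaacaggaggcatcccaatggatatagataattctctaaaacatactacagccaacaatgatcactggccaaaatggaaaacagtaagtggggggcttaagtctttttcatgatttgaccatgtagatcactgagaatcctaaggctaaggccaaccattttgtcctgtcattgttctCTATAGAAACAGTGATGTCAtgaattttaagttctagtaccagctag
Spag4 encodes a SUN-domain protein of the spermatid nuclear envelope, and its RNA was also higher in the meiosis II libraries than in the earlier ones. Its promoter (chr2:156064963-156065212, plus strand) was the one member promoter with the full cAMP response element TGACGTCA, which is marked in capitals and starts at -37.
Spag4: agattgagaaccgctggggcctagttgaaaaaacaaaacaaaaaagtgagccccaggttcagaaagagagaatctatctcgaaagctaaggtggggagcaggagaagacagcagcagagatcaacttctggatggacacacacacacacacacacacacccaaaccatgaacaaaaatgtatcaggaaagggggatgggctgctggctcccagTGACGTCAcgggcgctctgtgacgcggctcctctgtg
Spag17, a central pair protein gene (chr3:99885167-99885416, plus strand), and Rsph9, a radial spoke head gene (chr17:46144201-46144450, minus strand), were lower in null libraries at all 3 stages. Here the capitals mark CpG dinucleotides, which CXXC1 is known to bind when unmethylated and of which each upstream sequence has 10. Over the promoters of 300 bases each of these 2 genes had 12. The median was 14 over member promoters and 7 over all promoters. Whether CXXC1 binds at either gene, and whether the CpG number bears on the lower RNA, was not tested.
Spag17: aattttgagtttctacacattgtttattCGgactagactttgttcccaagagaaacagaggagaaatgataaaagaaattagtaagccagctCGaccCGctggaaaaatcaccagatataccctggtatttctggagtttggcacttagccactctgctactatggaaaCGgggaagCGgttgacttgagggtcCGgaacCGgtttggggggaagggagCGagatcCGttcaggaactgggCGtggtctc
Rsph9: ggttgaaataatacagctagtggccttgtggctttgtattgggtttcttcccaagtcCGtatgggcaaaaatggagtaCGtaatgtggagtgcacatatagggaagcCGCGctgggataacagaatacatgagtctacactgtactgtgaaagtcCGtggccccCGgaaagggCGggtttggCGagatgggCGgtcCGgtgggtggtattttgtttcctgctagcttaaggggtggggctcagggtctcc

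Searches over the 300-base windows (250 before and 50 after the start) gave a description of all member promoters. GTTGCC or its reverse complement GGCAAC, part of the X-box that RFX factors read, was present in 12 of 40 member promoters (30.0%) and in 4111 of all 32851 (12.5%). It occurred in the windows of Dnaic2, Odf3, Odf3l1, Rsph3b, Spag6, Spag8, Spag16, Tekt1, Tekt2 and Tekt4. TGACGTCA was present in 1 of 40 (2.5%) against 588 of all (1.79%). The median number of CpG dinucleotides was 14 in member promoters and 7 in all promoters. Some members have more than 1 promoter in the table, so these are not independent genes, and a match is not evidence of binding.

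Levels differed widely between members. Rsph1, a radial spoke head gene, was the highest, between 1797 and 3515 FPKM. Odf2, which encodes the main outer dense fibre scaffold, followed with a mean over the 12 libraries of 584.8 FPKM, then Tekt1 (419), Odf4 (300.6), Spag6 (289.8), a central pair gene, and Rsph9 (222). Near the lower end, Spag9 averaged 11.3 FPKM, Dnalc1 7.92 and Odf3b 0.967. The 3 genes Odf3l2, Spag11a and Spag11b were listed at 0 in all 12 libraries, and Rsph4a, whose protein is known from motile cilia of the airway, was between 0.0912 and 0.806 FPKM. These 4 failed the filter (at least 1 FPKM in at least 2 libraries), and 33 members were tested among 12956 genes. The near-identical copies Rsph3a and Rsph3b may share reads, so how their level is split is uncertain.

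**Figure D1:**
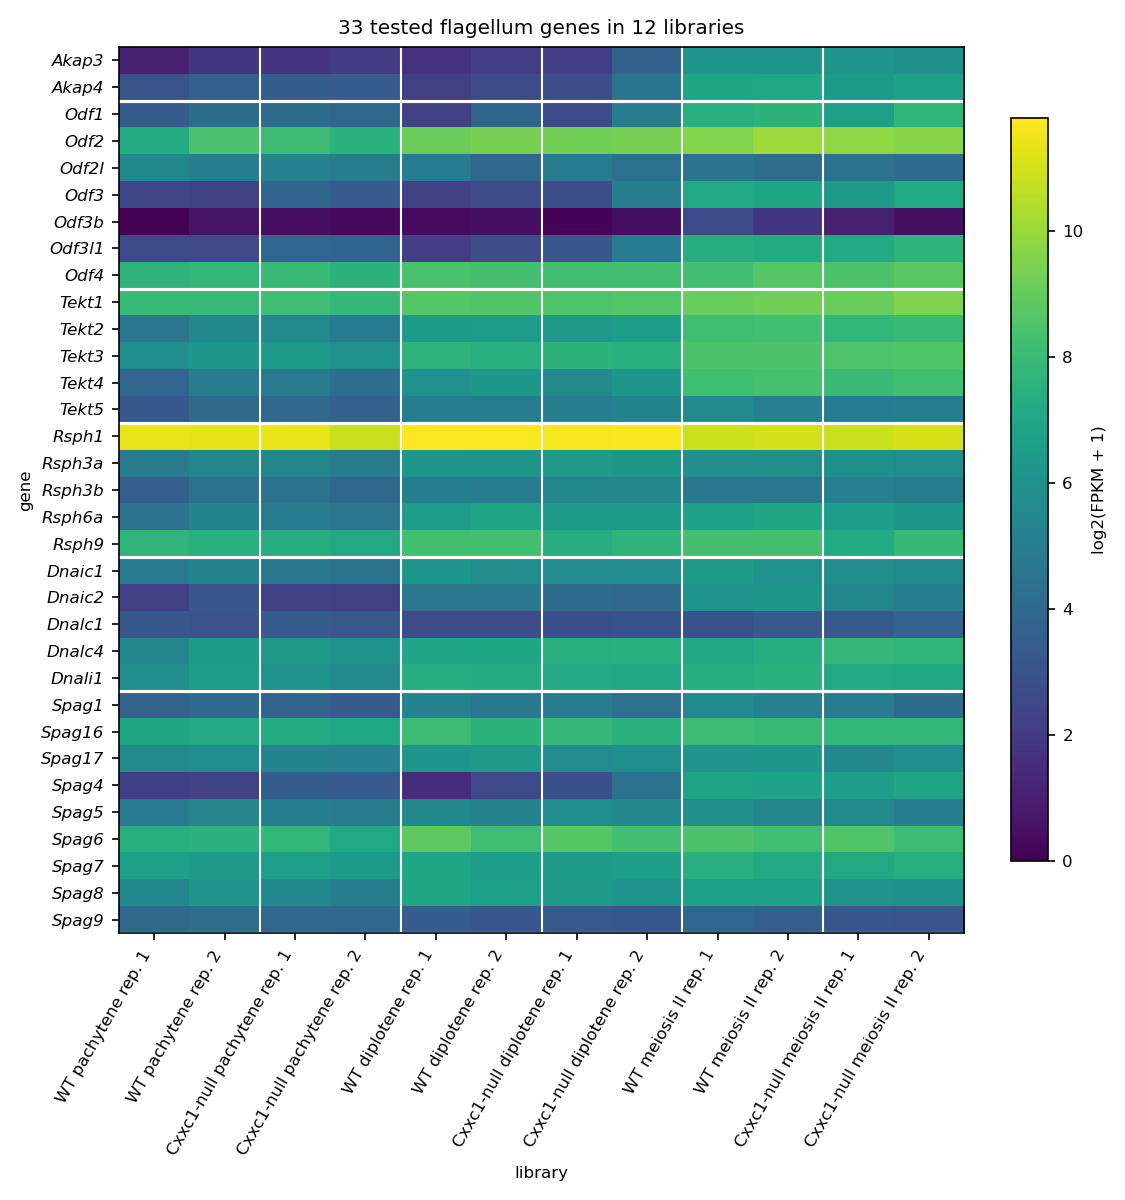
Log2(FPKM + 1) of the 33 tested members (down, by class) in the 12 libraries (across, by stage and genotype), with brighter colour for higher values as the colour bar gives. Rsph1 is the highest member in every library, and Akap3, Akap4, Odf1, Odf3, Odf3l1 and Spag4 change from low to high between diplotene and meiosis II.

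By group mean, most tested members ranked highest in meiosis II. In WT cells 25 of the 33 tested members had their highest group mean in meiosis II, 6 in diplotene and 2 in pachytene (Odf2l and Spag9). Over all 12956 genes the shares were 42%, 19.5% and 38.5%. In Cxxc1-null cells the members' counts were 21, 10 and 2. These counts rank means of 2 libraries as deposited, without a test, and some ranks were close. In WT, Dnalc1 had means of 7.70 FPKM in meiosis II and 7.62 in pachytene. Rsph9 had 312 in meiosis II and 301 in diplotene. In sorted bulk cells a larger share of one cell type and more RNA per cell of that type cannot be told apart.

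From pachytene to diplotene in WT cells, 19 of the 33 members rose, among them all 5 tektin genes, 4 of the 5 dynein chain genes and the outer dense fibre genes Odf2 and Odf4. These 19 were higher in diplotene and 1 member was lower (limma on log2(FPKM + 1), Benjamini-Hochberg adjusted p under 0.05 over all genes). Over all genes tested 9.08% were higher and 17.4% lower. The members' median difference was 0.67 on the log2 scale, against -0.11 over all genes. Differences on this scale understate the change of genes with low FPKM. Markers of other cells differed over the same step. Of 10 tested spermatogonial markers 5 fell and 0 rose in WT, with a median of -0.87, and 2 lay above 0. The 12 in the table summed to 494 and 266 FPKM in pachytene and 89.5 and 68.6 in diplotene. Dazl (361 and 150 FPKM) and Id4 (112 and 77.8) made up most of the WT pachytene sums, so the sums mainly follow these 2 genes. In null cells 6 of the 10 fell, with sums of 261 and 311 against 61.9 and 62.1. Of 8 tested Sertoli markers 1 fell in WT (median -0.54) and 4 in null (median -0.99). Of 25 tested spermatid markers 3 rose and 1 fell in WT (median -0.36). The part of these cells in the members' rise was not tested.

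Dnaic2, which encodes an intermediate chain of the outer dynein arm, had the largest rise. In WT it was at 3.75 and 7.96 FPKM in pachytene, 24.6 and 25.7 in diplotene, and 66.8 and 73.2 in meiosis II. Both diplotene libraries lay above both pachytene libraries, at 4.29 times their mean, and the log2 difference was 2.003 ± 0.288 (SE; limma adjusted p = 0.00185). The other 4 chain genes behaved less uniformly. Dnaic1, the second intermediate chain gene, rose from 32.6 ± 7.17 to 64.1 ± 12.1 FPKM (SD, n = 2). Dnali1, which encodes a light intermediate chain of the inner arms, rose from 72.3 ± 25.2 to 159 ± 5.77 FPKM, and the light chain gene Dnalc4 from 63.1 ± 31.0 to 120.5 ± 6.80. Dnalc1, an outer arm light chain gene, had 7.62 ± 0.861 and 5.71 ± 0.0302 FPKM and did not pass the test.

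All 5 tektin genes were called higher in diplotene. Tekt4 in WT was at 13.5 and 30.0 FPKM in pachytene, 60.4 and 75.9 in diplotene, and 299 and 321 in meiosis II, with a log2 difference of 1.70 ± 0.35 from pachytene to diplotene (limma adjusted p = 0.00793). For Tekt3 the values were 56.7 and 76.6 FPKM in pachytene, 203 and 173 in diplotene, and 359.7 and 363 in meiosis II (1.49 ± 0.22, limma adjusted p = 0.00198). Tekt2 had 23.4 and 42.7 FPKM in pachytene, 85.8 and 86.8 in diplotene, and 282 and 292 in meiosis II (1.42 ± 0.30, limma adjusted p = 0.008). For each of these 3 the diplotene libraries lay above both pachytene libraries, and the 2 pachytene libraries differed from each other, with replicate 2 the higher. Tekt1 rose by 0.67 ± 0.20 and Tekt5 by 1.33 ± 0.28.

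Among radial spoke genes, Rsph6a, which encodes a head protein of the sperm flagellum, rose most. Its WT values were 21.4 and 38.9 FPKM in pachytene, 91.1 and 116 in diplotene, and 106 and 124 in meiosis II, and the log2 difference was 1.80 ± 0.28 (limma adjusted p = 0.00243). Rsph3a and Rsph3b also rose, by 0.99 and 1.05. Rsph1 (0.46 ± 0.22) and Rsph9 (0.66 ± 0.24) had both diplotene libraries above both pachytene libraries and did not pass the test.

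Odf2 was the outer dense fibre gene with the largest rise, with WT values of 150.3 and 333 FPKM in pachytene, 553 and 662 in diplotene, and 781 and 1069 in meiosis II (1.43 ± 0.35, limma adjusted p = 0.0149). Odf4 was the other one called, at 0.65 ± 0.21. The central pair genes Spag6, Spag16 and Spag17 rose by 1.04, 0.80 and 0.63. Spag8, whose protein associates with axonemal microtubules, rose by 0.98, and Spag1, which encodes a dynein arm assembly factor, by 1.10. Spag9 was the 1 member that fell, from 15.8 and 17.3 to 9.27 and 7.90 FPKM (-0.87 ± 0.20, limma adjusted p = 0.0116).

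Cxxc1-null cells had 15 members higher and 1 lower in diplotene than in pachytene (11.9% and 17.4% of all genes), with a median of 0.60 against -0.09. Dnaic2 again had the largest difference (1.76 ± 0.29) and Spag9 was the member that fell (-0.70 ± 0.20). These counts depended on the pooled spread and on single libraries. A changed fit can change how many of all genes pass. The counts that follow without a share over all genes are therefore not a result about the members. In a fit of the 2 WT groups alone 0 of 33 members passed, and that fit called 3 genes in all. Without both libraries that stand apart 17 members passed in WT and 15 in null, and in WT 8 passed when WT pachytene replicate 1 was left out, 10 when WT diplotene replicate 1 was, and 9 when WT diplotene replicate 2 was. In WT pachytene, 26 of 33 members were higher in replicate 2 than in replicate 1, with a median log2 difference of 0.43, while 55.5% of all genes were. In null pachytene 2 of 33 were higher in replicate 2. For the null cells, 2 members passed without Cxxc1-null pachytene replicate 2, 9 without Cxxc1-null diplotene replicate 1 and 10 without Cxxc1-null diplotene replicate 2.

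**Figure D2:**
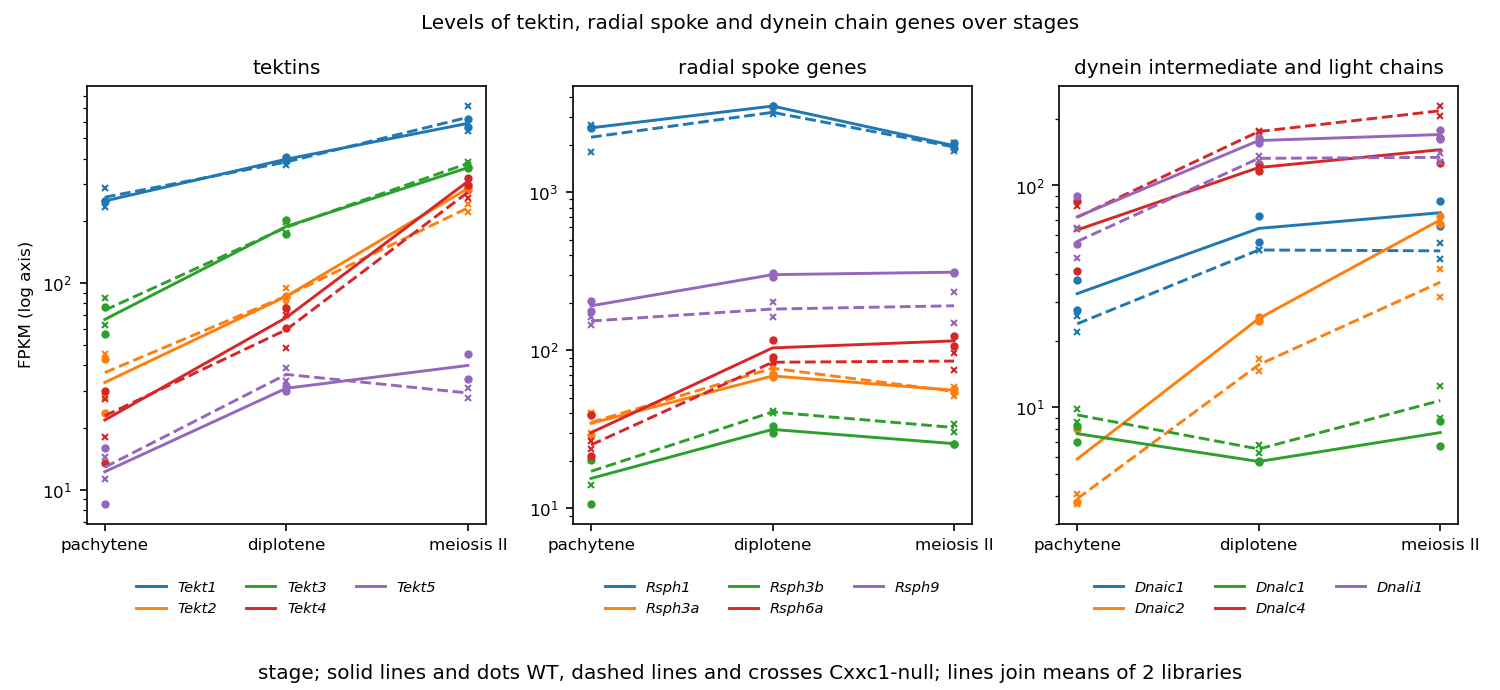
FPKM (log axis) of tektin, radial spoke and dynein chain genes at each stage, with dots and solid lines for WT and crosses and dashed lines for Cxxc1-null, each point a library and each line joining means of 2 libraries. The means of Tekt1 to Tekt4 rise over both steps, most radial spoke genes level off or fall after diplotene, and the dashed lines of Rsph9 and Dnaic2 run below the solid ones.

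From diplotene to meiosis II the largest rises were in fibrous sheath and outer dense fibre genes and in Spag4. In WT cells 12 of 33 were higher in meiosis II and 1 was lower, while 26.1% and 18.9% of all genes were. The median was 0.37 among members and 0.02 over all genes. Scaling moved this comparison. Setting a common median in all libraries shifted the median of all genes to -0.28, and 18 of 33 members then lay above 0, against 26 without it. Quantile normalization gave a median of all genes of -0.235 with 26 members above 0.

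The 6 members Odf3l1, Spag4, Akap4, Odf3, Odf1 and Akap3 stood well above the rest in this step, at 4.20 to 4.83 on the log2 scale, while the next, Tekt4, was at 2.18. These 6 are called the late members below, a grouping made from these values.

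Akap4 encodes the main structural protein of the fibrous sheath and lies on the X chromosome. In WT it was at 7.21 and 11.7 FPKM in pachytene, 3.68 and 5.64 in diplotene, and 125 and 134 in meiosis II. The meiosis II mean was 27.8 times the diplotene mean (4.55 ± 0.48, limma adjusted p = 5.59e-05). Akap3, its partner in the fibrous sheath, was at 1.25 and 2.81 FPKM in pachytene, 2.32 and 3.47 in diplotene, and 69.2 and 70.6 in meiosis II. This was 24.1 times the diplotene mean (4.20 ± 0.42, limma adjusted p = 4.72e-05). Both genes were low through pachytene and diplotene and high in each meiosis II library.

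Odf1, which encodes a small heat shock-like protein of the outer dense fibres, was at 9.43 and 17.1 FPKM in pachytene, 4.03 and 12.9 in diplotene, and 168 and 198 in meiosis II. Its meiosis II mean was 21.6 times that of diplotene (4.45 ± 0.71, limma adjusted p = 0.000581). Odf3, a member of a family of microtubule-associated tail proteins, was at 4.72 and 3.80 FPKM in pachytene, 3.95 and 5.60 in diplotene, and 139.7 and 123 in meiosis II (4.53 ± 0.55, limma adjusted p = 0.000117). Its paralog Odf3l1 was at 5.25 and 5.14 FPKM in pachytene, 3.41 and 5.73 in diplotene, and 159.7 and 149 in meiosis II (4.83 ± 0.44, limma adjusted p = 3.05e-05). For each of the 3, no pachytene or diplotene library of WT reached the level of either meiosis II library.

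Spag4 had the same order of levels, at 3.54 and 3.97 FPKM in pachytene, 1.81 and 4.99 in diplotene, and 116 and 113 in meiosis II in WT. The meiosis II mean was 33.7 times the diplotene mean (4.82 ± 0.47, limma adjusted p = 4.07e-05). Another paralog, Odf3b, went from 0.255 and 0.395 to 5.23 and 2.72 FPKM (1.86 ± 0.30, limma adjusted p = 0.000647), a low level throughout. Odf3b reached 1 FPKM only in meiosis II libraries, so it entered the test through the stage in which it was high.

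Axonemal members moved less in this step or not at all. Tekt4 (2.18 ± 0.35), Tekt2 (1.72 ± 0.30), Tekt3 (0.94 ± 0.22) and Tekt1 (0.57 ± 0.20) rose further, as did Dnaic2 (1.44 ± 0.29). Tekt5 had a difference of 0.34 ± 0.28 and was not called. Rsph1 fell, from 3515 and 3498 to 1906 and 2033 FPKM (-0.83 ± 0.22, limma adjusted p = 0.0102). That call was lost under quantile normalization (-0.56, limma adjusted p = 0.0939). No other radial spoke gene and no central pair gene among the members passed the test. Diplotene libraries enter both steps, so the 2 steps are not independent of each other.

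Markers of other cells moved with this step. Of 25 tested spermatid markers 21 were called higher in meiosis II and 0 lower in WT (median 4.16), and Tnfrsf8 was the 1 marker of the 26 listed at 0 in any library. All 8 tested Sertoli markers were higher (median 3.47), and the Sertoli marker Amh was listed at 0 in WT meiosis II replicate 2. Sox9, Wt1 and Gata1 reached 1 FPKM only in meiosis II libraries, so they entered the test through the stage in which they were high. For them the direction was partly fixed in advance. The part of spermatids or Sertoli cells in the rise of the late members was not tested.

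In Cxxc1-null cells 13 members were higher and 1 lower in meiosis II than in diplotene (25.3% and 18.8% of all genes), with a median of 0.31 against -0.01. The late members were again the 6 largest, from 2.90 ± 0.55 for Odf3 to 3.38 ± 0.44 for Odf3l1. Their null diplotene level differed greatly between the 2 libraries. Their summed level was 35.5 FPKM in replicate 1 and 144.8 in replicate 2, against 19.2 and 38.3 in WT diplotene. In meiosis II the sums were 777 and 788 in WT and 576 and 845 in null. Spermatid markers in the same null diplotene libraries summed to 2017 and 3195 FPKM. Without both libraries that stand apart, 11 members were called higher or lower in this step in null cells and 12 in WT cells.

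**Figure D3:**
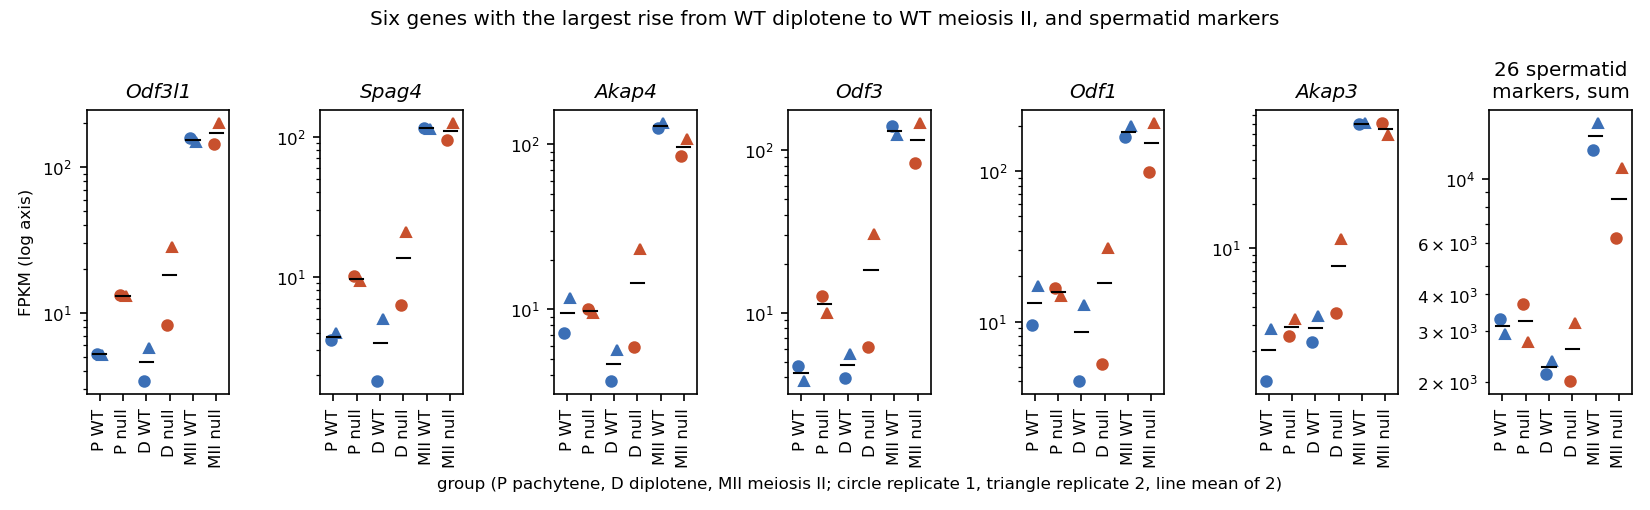
FPKM (log axis) of the 6 members with the largest meiosis II against diplotene difference in WT, and the summed level of 26 spermatid markers, with circles for replicate 1, triangles for replicate 2, a line for their mean, blue for WT and orange-red for Cxxc1-null. All 6 lie between 58.6 and 208 FPKM in the meiosis II libraries of both genotypes, and Cxxc1-null diplotene replicate 2 is the highest diplotene library for each.

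The comparison of Cxxc1-null with WT cells asked whether these genes differed between the genotypes at a given stage. CXXC1 protein was not measured in these libraries, and some Cxxc1 RNA remained in each null library. In pachytene 0 of 33 members were called in either direction, against 0.34% of all genes higher and 0.0154% lower. Their median difference was 0.02 against 0.04 over all genes, and limma gave an unadjusted p under 0.05 for 2 members, Odf3l1 and Spag4 (6.06%, against 10.7% of all genes). In diplotene 0 of 33 were called, against 0.702% higher and 0.0849% lower over all genes. There the median was -0.01 against 0.09, and 8 members had an unadjusted limma p under 0.05 (24.2%, against 13.5%). In the fit without both libraries that stand apart 0 of 33 were called at either stage, and the medians were 0.23 against 0.09 over all genes in pachytene, where 24 of 33 members then lay above 0 in place of 18, and 0.02 against 0.06 in diplotene.

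In meiosis II 1 of 33 members was called, Odf3b, which was lower (4.35% of all genes were lower and 6.14% higher). Odf3b was at 5.23 and 2.72 FPKM in WT and 1.08 and 0.382 in null, a mean that was 18.4% of WT. The log2 difference was -1.505 ± 0.302 (limma adjusted p = 0.0141). Its level in pachytene and diplotene was at most 0.577 FPKM in either genotype, so it passed the filter only through meiosis II libraries. Its entry to the test thus depended on the libraries in which it was high. The call did not hold with a pseudocount of 0.1 (limma adjusted p = 0.126), nor without WT meiosis II replicate 1 or Cxxc1-null meiosis II replicate 2. With both libraries that stand apart left out, 3 members were called lower in this stage (5.08% of all genes were). Over the members as a whole, 25 of 33 differences lay below 0, while 51.6% of all genes lay above 0. The members' median was -0.24 against 0.02 over all genes, and 8 had an unadjusted limma p under 0.05 (24.2%, against 26.1%). The number of members above 0 was 8 as deposited, 5 once quantiles were matched between libraries, and 11 when library medians were matched.

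Averaged over the 3 stages, 4 members were lower in null cells and 2 were higher. The shares of all genes were 5.13% and 11.5%. The members' median was -0.03 against 0.05, and 33.3% had an unadjusted limma p under 0.05 against 32.2% of all genes, so the share of members that differed was near that of genes in general. Each library counted on its own here; when same-numbered libraries of a genotype were averaged over the 3 stages, 0 of 33 passed. The number called was 1 when Cxxc1-null pachytene replicate 2 was left out, 2 without WT diplotene replicate 1, WT meiosis II replicate 1 or Cxxc1-null meiosis II replicate 2, 3 without Cxxc1-null pachytene replicate 1 or Cxxc1-null diplotene replicate 2, and 4 without WT meiosis II replicate 2. It was 9 without WT pachytene replicate 1 or Cxxc1-null diplotene replicate 1.

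The 4 lower members belong to the axoneme. Rsph9, a radial spoke head gene, was at 206 and 176 FPKM in pachytene, 293 and 309 in diplotene, and 311 and 314 in meiosis II in WT. In null cells it was at 163 and 144 FPKM in pachytene, 163 and 202 in diplotene, and 148 and 234 in meiosis II. Both null libraries lay below both WT libraries at each stage, and the averaged log2 difference was -0.59 ± 0.14 (limma adjusted p = 0.0169). In pachytene the null mean was 80.2% of WT, in diplotene 60.6% and in meiosis II 61.3%.

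Spag17 encodes a large protein of the central pair apparatus. WT libraries had 45.8 and 51.7 FPKM in pachytene, 72.6 and 79.2 in diplotene, and 70.7 and 77.5 in meiosis II. The null libraries had 39.4 and 35.8 FPKM in pachytene, 50.9 and 57.8 in diplotene, and 43.4 and 52.9 in meiosis II. Again the groups did not overlap at any stage, and the averaged difference was -0.49 ± 0.11 (limma adjusted p = 0.0156). The null mean was 77.1%, 71.5% and 65.0% of WT from pachytene to meiosis II.

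Dnaic2 had null values of 4.07 and 3.68 FPKM in pachytene, 16.5 and 14.6 in diplotene, and 41.9 and 31.4 in meiosis II, which lay below both WT libraries in diplotene and meiosis II and overlapped them in pachytene. Its averaged difference was -0.67 ± 0.17 (limma adjusted p = 0.0231), and in meiosis II the null mean was 52.4% of WT. Dnaic1, the other intermediate chain gene, was lower in both null libraries at all 3 stages, with an averaged difference of -0.43 ± 0.14 that did not pass (limma adjusted p = 0.0577). The dynein light chain gene Dnalc4 had the opposite sign. Its null values were 80.5 and 63.4 FPKM in pachytene, 173 and 176 in diplotene, and 228 and 206 in meiosis II, against 41.1 and 85.0, 116 and 125, and 127 and 163 in WT. This difference of 0.46 ± 0.17 did not pass either (limma adjusted p = 0.0978).

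Spag8 was at 43.8 and 69.9 FPKM in pachytene, 120.1 and 102 in diplotene, and 115 and 106 in meiosis II in WT. Null cells had 44.5 and 31.9 FPKM in pachytene, 82.9 and 69.9 in diplotene, and 65.5 and 58.6 in meiosis II, below both WT libraries in diplotene and meiosis II. The averaged difference was -0.63 ± 0.15 (limma adjusted p = 0.0188). Rsph1, Rsph6a and the central pair genes Spag6 and Spag16 had averaged differences of -0.13, -0.30, -0.02 and -0.09 and were not called, nor was any tektin.

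**Figure D4:**
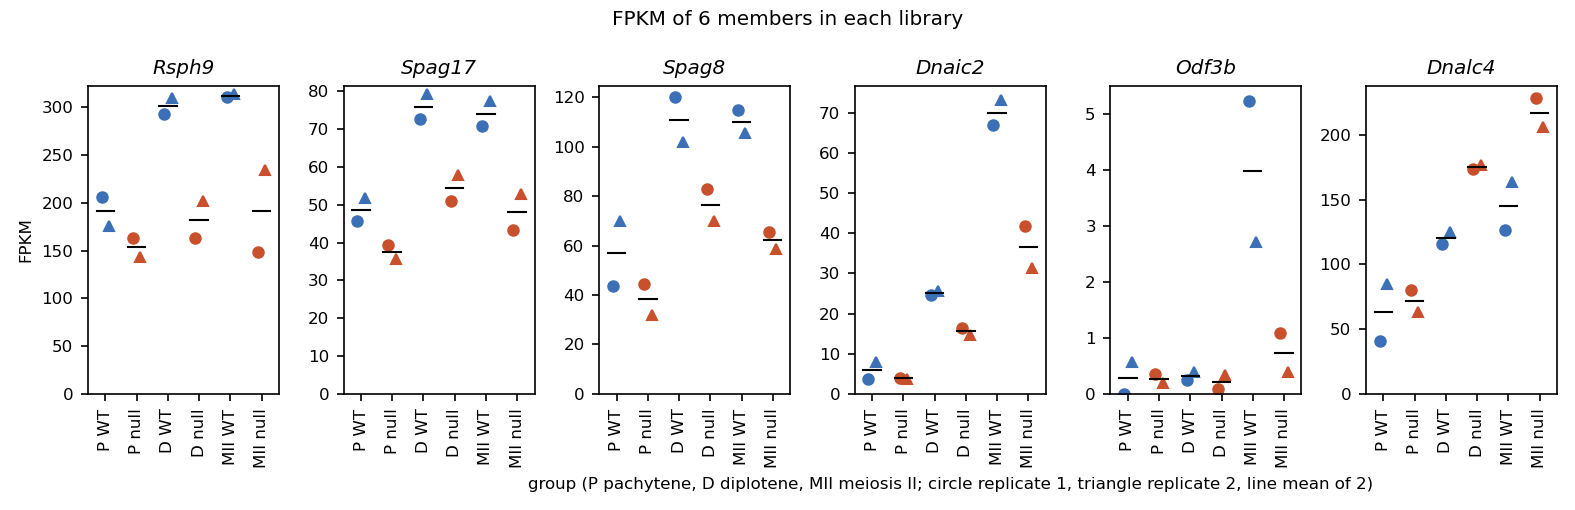
FPKM of 6 members in each of the 12 libraries, with circles for replicate 1, triangles for replicate 2, a line for their mean, blue for WT and orange-red for Cxxc1-null. Rsph9 and Spag17 have both null points below both WT points at each stage; Dnalc4 is shown for its opposite sign and did not pass the test.

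The 2 members that were higher in null cells were both late members. Odf3l1 in null cells was at 13.3 and 13.0 FPKM in pachytene, 8.27 and 28.2 in diplotene, and 144 and 200.4 in meiosis II. Both null libraries were above both WT libraries in pachytene and diplotene, and the ranges overlapped in meiosis II. The averaged difference was 0.98 ± 0.26 (limma adjusted p = 0.0287). By stage it was 1.19 ± 0.44, 1.59 ± 0.44 and 0.14 ± 0.44. The diplotene difference was 0.77 ± 0.32 without Cxxc1-null diplotene replicate 2, and the averaged one was then 0.70 ± 0.16 (limma adjusted p = 0.0256). Without WT pachytene replicate 2 the averaged call was lost (0.97, limma adjusted p = 0.053).

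Spag4 in null cells was at 10.1 and 9.32 FPKM in pachytene, 6.34 and 21.0 in diplotene, and 94.1 and 125 in meiosis II, with the same order of groups. Its averaged difference was 0.91 ± 0.27 (limma adjusted p = 0.0468), and by stage 1.17 ± 0.47, 1.63 ± 0.47 and -0.08 ± 0.47. Without Cxxc1-null diplotene replicate 2 the diplotene difference was 0.84 ± 0.40 and the averaged one 0.64 ± 0.21, which did not pass (limma adjusted p = 0.0744). Odf3 had the same order of groups too, with 12.7 and 9.93 FPKM in null pachytene against 4.72 and 3.80 in WT, and an averaged difference of 0.79 ± 0.32 that did not pass (limma adjusted p = 0.118). Akap3 (0.42 ± 0.24), Akap4 (0.28 ± 0.28) and Odf1 (0.23 ± 0.41) were not called. Akap4 in null cells was at 10.02 and 9.53 FPKM in pachytene, 5.92 and 23.1 in diplotene, and 85.2 and 107 in meiosis II, and both null meiosis II libraries lay below both WT ones (-0.43 ± 0.48, limma adjusted p = 0.617).

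Spermatid markers lay mostly above 0 in pachytene. In null minus WT their median was 0.53 in that stage (21 of 25 above 0, against 54.3% of all genes). It was 0.61 without WT pachytene replicate 2 (21 of 25). In diplotene it was 0.83 (20 of 25 above 0, against 60.6% of all genes), but this rested on 1 library. Without Cxxc1-null diplotene replicate 2 the median was 0.03, with 14 of 25 above 0. In the remaining null diplotene library the 26 markers summed to 2017 FPKM, below the 2134 and 2364 of WT, but single markers went both ways. Prm1, a protamine gene, was at 29.5 FPKM against 128 and 305, and Prm2, Tnp1 and Tnp2 were also below both WT libraries. Spaca1 was at 31.7 FPKM against 13.4 and 19.2, and Catsper3 and Izumo1 were also above both. In meiosis II the median was -0.14 (9 of 25 above 0, against 51.6% of all genes). Averaged over stages 5 of 25 were called higher and 1 lower, against 11.5% and 5.13% of all genes. Both counts depended on Cxxc1-null diplotene replicate 2. Among them Acrv1, an acrosome gene, was at 45.1 and 65.4 FPKM in null pachytene and 17.7 and 11.9 in WT, while the transition protein gene Tnp1 was at 347 and 229 against 460.3 and 341. The part of spermatid RNA in the higher Odf3l1 and Spag4 levels was not tested. Without both libraries that stand apart, 4 members were called over stages. Spag4 (0.67, limma adjusted p = 0.0894), Dnaic2 (-0.49, limma adjusted p = 0.0605) and Spag8 (-0.48, limma adjusted p = 0.0687) were not among them.

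The genotype by stage interaction, which asks whether the null effect varied over stages, passed for 0 of 33 members (0.054% of all genes passed), also without both libraries that stand apart. By limma 1 member, Odf3b, had an unadjusted p under 0.05 (limma adjusted p = 0.322), and it had passed the filter only through meiosis II libraries. For Odf3l1 and Spag4 a difference in effect between the earlier stages and meiosis II was thus not shown.

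**Figure D5:**
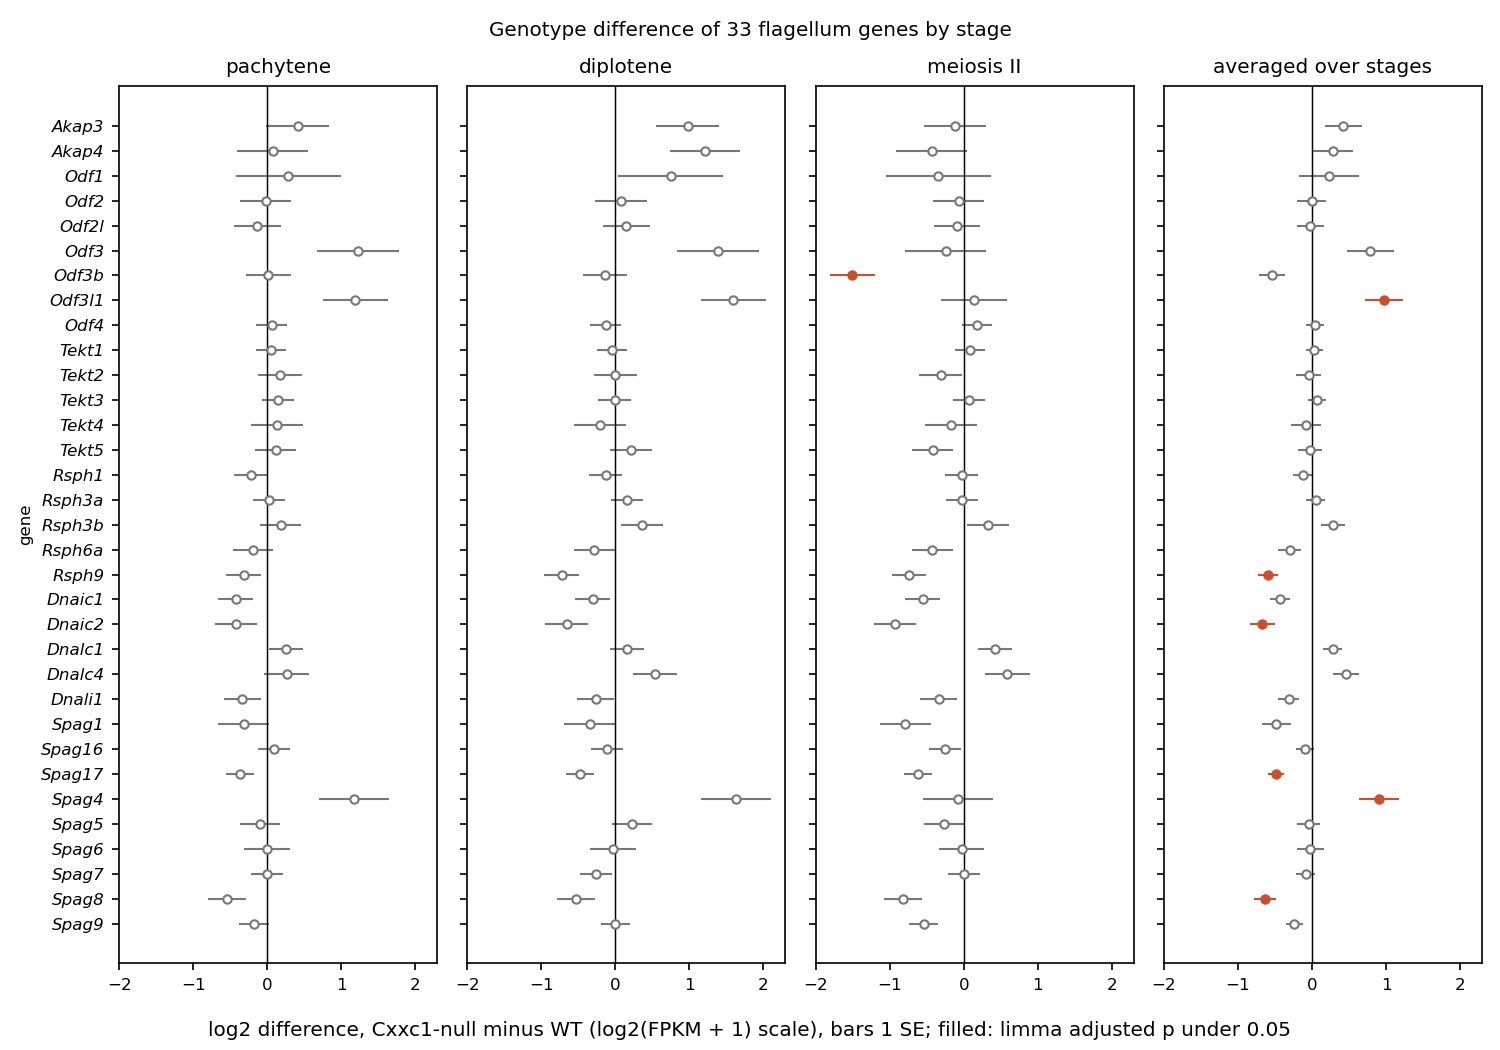
Log2 difference of Cxxc1-null minus WT for each of the 33 tested members, by stage and averaged over stages, with bars of 1 standard error and filled points for limma adjusted p under 0.05. Spag17, Rsph9, Dnaic2 and Spag8 lie below 0 and Odf3l1 and Spag4 above 0 in the average.

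Other flagellum genes were counted from lists by function, 90 genes in the table of which 86 were tested. In WT 23 of 86 rose from pachytene to diplotene (9.08% of all genes did) and 0 fell; 35 had an unadjusted limma p under 0.05. Those were 5 of 8 dynein heavy chain genes, 6 of 16 assembly and docking genes such as Lrrc50 (1.82 ± 0.38), 6 of 12 genes of the nexin-dynein regulatory complex and ruler such as Tcte1 (1.79 ± 0.55), and 4 of 8 central pair genes such as Spef1 (1.26 ± 0.26). Only 1 of 15 fibrous sheath and midpiece genes and 1 of 17 intraflagellar transport genes did. In the step to meiosis II, 18 rose and 11 fell, against 26.1% and 18.9% of all genes. Here 10 of 15 fibrous sheath and midpiece genes rose (median 2.84), such as Cabyr (4.53 ± 0.45), which encodes a calcium-binding fibrous sheath protein, and Ropn1 (4.30 ± 0.55). Of the dynein heavy chain genes 0 of 8 rose in this step by the limma test and 1 fell, Dnahc7b, whose reads may be shared with its near-identical copy Dnahc7a. Some genes of the fibrous sheath list, Gapdhs and Smcp, are also among the spermatid markers.

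Between genotypes 0 of 86 passed in pachytene (0.34% of all genes were higher and 0.0154% lower), where the median was -0.09 against 0.04 over all genes and limma gave 10 an unadjusted p under 0.05. In diplotene 1 of 86 was higher, Fbxl13 (1.19 ± 0.23, limma adjusted p = 0.0499), a regulatory complex gene, against 0.702% of all genes. It was at 9.89 and 15.0 FPKM in null and 4.71 and 4.87 in WT, and the call was lost without Cxxc1-null diplotene replicate 2 (0.91, limma adjusted p = 0.342) and without WT pachytene replicate 2 (limma adjusted p = 0.0511). In meiosis II 0 were higher and 4 were lower (4.65%), a share near that of all genes (4.35% lower, 6.14% higher). The 4 were the docking gene Ccdc114 (-1.37), the adenylate kinase gene Ak7 (-0.91), the transport gene Ttc21b (-1.47 ± 0.26, limma adjusted p = 0.00792) and Mybl1 (-1.05), a transcription factor gene of pachytene cells. The count of lower genes was 5 without both libraries that stand apart. Averaged over stages 5 were higher and 7 lower, against 11.5% and 5.13% of all genes. Of the 5 higher, Cabyr (1.31), Spata19 (1.27), Akap14 (1.08) and Tssk4 (0.96) are fibrous sheath or midpiece genes and Fbxl13 (0.77) is not. The 7 lower were Dnahc10 (-0.56), Zmynd10 (-0.73), Armc4 (-0.45), Spef1 (-0.60), Nme5 (-0.81), Ak7 (-0.57) and Ttc21b (-1.07 ± 0.15, limma adjusted p = 0.00184). Leaving out both libraries that stand apart, 4 were higher and 2 lower, namely Cabyr (0.92), Akap14 (0.78), Tssk4 (0.69) and Fbxl13 (0.68), and Nme5 (-0.97) and Ttc21b (-0.99). Cabyr and Spata19 were far apart in the 2 null diplotene libraries, at 22.2 and 68.2 FPKM for Cabyr and 30.1 and 129.9 for Spata19, and Spata19 was not called without the second of them (0.93, limma adjusted p = 0.0618).

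Dynein heavy chain genes were 0 of 8 above 0 in the averaged contrast, where 56.6% of all genes were. Their median was -0.35 against 0.05, and 1 was called lower, Dnahc10 (5.13% of all genes were lower). Without both libraries that stand apart 0 of 8 lay above 0, the median was -0.25 against 0.06, and Dnahc10 was not called (-0.50, limma adjusted p = 0.0699). Dnahc8, the most abundant of them, was at 78.5 ± 14.9 FPKM in WT meiosis II and 47.6 ± 3.11 in null (SD, n = 2). Dnahc10 was at 6.13 ± 1.12 FPKM in WT and 3.45 ± 0.181 in null at that stage.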

How the data were processed

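The authors deposited 1 table of FPKM values for 23235 genes in 12 RNA libraries. The submitters' processing notes name TopHat2 2.1.1, Cufflinks 2.2.1 and mm9; the sources used here give neither their roles nor strand. Reads could not be recovered from the low values, so depth is unknown and no count test was run. Groups came from sample titles. FPKM was transformed with a pseudocount of 1 on the log2 scale, and genes reaching 1 FPKM in 2 or more libraries were fitted with limma 3.58.1 (R 4.3.3), 1 mean per group, 6 residual degrees of freedom, trended variances and Benjamini-Hochberg adjustment at 0.05 over all genes tested. The fit was checked on simulated data. Members, lists and tests were chosen with earlier results of these data known. Members named with values were up to 8 per direction and genotype contrast and 6 per WT stage contrast that passed, by size, the 6 most abundant, the 2 most abundant of each class, both A-kinase anchoring proteins, those with the smallest interaction p, and those listed at 0 or failing the filter; others (such as Dnaic1 and Rsph3a) were named after their values were seen. Alternatives covered the pseudocount, the filter, 2 scalings, separate fits, a replicate block and leaving libraries out; the marker and other flagellum lists without the 2 libraries that stand apart were added after the data were seen. The promoters are of a different build from mm9 and were matched by gene name. The 8 ChIP libraries were not analysed here.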

Additional observations from a re-analysis of the deposited data

How the results depend on the processing

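For null minus WT in pachytene and in diplotene, limma called 0 members as reported and 0 under each alternative run except without Cxxc1-null diplotene replicate 1, where 5 were called in diplotene (range over libraries left out 0 to 5), and the interaction called 0 under each. In meiosis II, where 1 was called, the number was 0 with a pseudocount of 0.1, with a filter of 5 FPKM and in a separate fit, 2 with no expression filter, 5 under quantile normalization, 3 without both libraries that stand apart, and 0 to 3 when single libraries were left out. Averaged over stages 6 were called, 1 to 9 when single libraries were left out (1 without Cxxc1-null pachytene replicate 2, 9 without WT pachytene replicate 1 or Cxxc1-null diplotene replicate 1), and 0 with stages joined by replicate number, which leaves 4 units; a separate fit does not apply to this contrast. Diplotene minus pachytene gave 20 calls in WT, 0 in a separate fit and 8 to 21 with a library left out, and 16 in null cells with 2 to 19. Meiosis II minus diplotene gave 13 in WT (11 to 13) and 14 in null (10 to 14). Where a library left out leaves 1 in its group, that library is assumed to vary like the others. The causes were not tested.

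Groups share replicate numbers, but the labels do not say that a number marks an animal or a day, and 2 pairs cannot establish it. Same-numbered libraries of WT and null deviated together at r = -0.0659 in pachytene, 0.321 in diplotene and 0.109 in meiosis II. Within a genotype, same-numbered libraries of different stages, which bear on the contrast averaged over stages, deviated together at r = 0.17 to 0.314 in WT and 0.116 to 0.42 in null; between genotypes at different stages r was -0.253 to 0.191. With the replicate block 2 members were called in meiosis II, 7 averaged over stages, 21 and 19 from pachytene to diplotene in WT and null, and 13 and 14 to meiosis II.

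Over 21 results for named members and 419 alternatives, 358 kept their call, 61 lost it and 0 reversed. The 6 late members kept theirs in 20 of 20 for WT meiosis II minus diplotene. For null minus WT over stages, Spag17 kept it in 19 of 20 and Rsph9 in 18 of 20, Spag8 in 13, Odf3l1 in 11, Dnaic2 in 10 and Spag4 in 7. With stages joined by replicate number none of these 6 passed (limma adjusted p = 0.0918 to 0.226). With n = 2 and unknown depth, members below about 1 FPKM, such as Rsph4a, cannot be compared.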

Other observations

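Genes of intraflagellar transport, which carries cargo along a growing tail, mostly did not pass the test in the last step. Of 17 such genes 4 fell from diplotene to meiosis II in WT, Ift20 (-1.61 ± 0.25), Ift80 (-1.28 ± 0.24), Ift27 (-0.88 ± 0.26) and Ift46 (-0.71 ± 0.20; limma adjusted p = 0.00051 to 0.0182), and 0 rose (23.5%, against 18.9% of all genes). The other 13 were not called, 6 of the 17 lay above 0, and the median was -0.20 against 0.02 over all genes. Regulators of cilium genes differed from each other. Rfx2, a main RFX factor of the testis, was already at 50.7 ± 23.5 FPKM in WT pachytene and at 83.7 ± 23.8 and 91.0 ± 11.9 in the later stages (SD, n = 2). Foxj1, a master regulator of motile cilia, was at 0.152 ± 0.216 and 0.272 ± 0.0877 FPKM in WT pachytene and diplotene and at 14.2 ± 2.97 in meiosis II, a rise of 3.57 ± 0.31. Rfx1 rose by 3.05 ± 0.34 and Rfx3 by 1.29 ± 0.18 in the same step. Foxj1 and Rfx1 would not have passed the filter without the meiosis II libraries, so their entry to the test depended on that stage. Crem was between 140 and 203 FPKM in the WT stage means. Averaged over stages 0 of 10 tested regulators were called between genotypes by limma, and 1 had an unadjusted p under 0.05.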
